A study of Mus musculus with 6 samples.

Results

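Nascent transcription was followed over 10 genes of the integrated stress response in proliferating muscle stem cells (MuSCs) of the mouse, namely Atf4, Atf5, Ddit3, Trib3, Chac1, Asns, Ppp1r15a, Sesn2, Psat1 and Phgdh. The genes were chosen by symbol, and all 10 were among the 14546 genes of the deposited table. PRO-seq maps RNA polymerase that is engaged in transcription, here in 3 Ctrl libraries from Pax7CreERT/Suv4-20h1WT cells and 3 Kmt5b sKO libraries from Pax7CreERT/Suv4-20h1KO cells. Both groups therefore carried Pax7CreERT, a tamoxifen-inducible Cre recombinase driven by the satellite cell gene Pax7, and the Kmt5b sKO cells in addition carried the knockout of Kmt5b (Suv4-20h1), the methyltransferase that makes the dimethyl mark on lysine 20 of histone H4, in that lineage. MuSCs were purified with magnetic beads and expanded in culture, and the sources used here do not say whether animals were pooled. Per gene the table holds a TSS region, the first 400 nt of 1 isoform, in RPM, the share of reads scaled to a fixed library size, and a gene body, the rest of that isoform, in TPM, the same scale divided by length.

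The integrated stress response joins several kinds of stress, such as lack of amino acids, unfolded proteins in the endoplasmic reticulum, viral RNA and lack of heme, at the phosphorylation of the translation factor eIF2α. Phosphorylated eIF2α slows most protein synthesis but favours translation of the mRNA of ATF4, a bZIP transcription factor that then switches on genes for amino acid supply, redox balance and feedback. Much of the control of ATF4 itself is thus exerted on the ribosome, which PRO-seq does not see, whereas its target genes are induced at the level of transcription.

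ATF4 binds with C/EBP proteins at composite elements known as CARE, and related bZIP factors bind the palindromic CRE. A search of the RefSeq promoters of build GRCm38.p6, each from 250 bases before to 50 bases after the start, covered all 10 genes on both strands. The CARE letters TGATGNAA were found in 3 of the 10, against 2.07% of the 9562 tested genes that have a promoter in that set and 3.97% of all 32851 promoters. The CRE letters TGACGTCA were found in 1 of the 10, against 3.47% of the same tested genes and 1.79% of all promoters. The 4 matches are shown because they lie at the genes whose nascent RNA is described next, and a match is a description of the letters, not evidence of binding. Capitals mark the matched letters, and no CARE match overlapped a CRE match.
Asns, chr6:7693214-7693243, minus strand: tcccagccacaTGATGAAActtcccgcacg
Chac1, chr2:119351009-119351096, plus strand: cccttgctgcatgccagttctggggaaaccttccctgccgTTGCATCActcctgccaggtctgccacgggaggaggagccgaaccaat
Trib3, chr2:152344028-152344057, minus strand: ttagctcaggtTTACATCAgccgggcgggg
Ppp1r15a, chr7:45526269-45526320, minus strand: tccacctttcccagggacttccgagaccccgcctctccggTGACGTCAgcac
The Asns match reads as CARE on the strand of the gene, while those of Chac1 and Trib3 read as CARE on the opposite strand. Counted from the RefSeq start, the first base lies at -193 in Chac1, at -23 in Asns, at 15 in Trib3 and at -12 in Ppp1r15a. The start listed in the PRO-seq table lies 45 nt upstream of the RefSeq start for Asns and 28 nt downstream of it for Trib3. By the table, the Asns letters thus fall inside the TSS region and those of Trib3 just ahead of it, while those of Chac1 and Ppp1r15a are ahead of both starts.

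The libraries held 926904 to 3246052 reads in TSS regions and 7425429 to 16249139 reads in gene bodies, recovered from the steps between low values. A tested gene had a median of 35 to 107 reads in the TSS region and 203 to 468 in the gene body. Only the counting error follows from these numbers, and the spread between libraries comes on top. Markers of the labelled cell type were present. Gene body sums of 10 markers of MuSCs or myoblasts were 2359.0, 2236.7 and 1660.8 TPM in Ctrl, lowest in replicate 3. In Kmt5b sKO they were 2327.2, 2151.6 and 2867.8 TPM, and 5 of the 10 had the higher mean there. Among them, Myod1 was at 855 to 1272 TPM in Ctrl, against 1091 to 1328 TPM in Kmt5b sKO gene bodies. Pax7 was at 26.0 to 53.7 and 25.5 to 29.5 TPM, respectively. Kmt5b itself was at 30.6, 35.4 and 38.5 TPM in the gene bodies of Ctrl and at 37.8, 35.0 and 42.6 TPM in Kmt5b sKO (adjusted p = 0.706, limma). The deleted exons are not given in the sources used here, and a value over the whole gene does not check the deletion. Summed gene body levels of 14 markers of differentiating myocytes were 2561.7 to 4610.5 TPM in Ctrl, against 4657.6 to 6447.3 TPM in Kmt5b sKO, with the lowest sum in Ctrl replicate 3. Of these 14, 13 had the higher gene body mean in Kmt5b sKO. The exception was Mymx, at a mean of 290 TPM in Ctrl, against 263 TPM in Kmt5b sKO. The 7 markers of mature fibres in the table all had the higher mean in Kmt5b sKO. They summed to 289.5, 386.1 and 190.2 TPM in Ctrl, against 510.9, 391.4 and 795.9 TPM in Kmt5b sKO, without overlap. Of the differentiation markers, Mef2c, Tnnc1 and Myl1 were called higher in Kmt5b sKO at the TSS and Tnnc1 and Myl1 in the gene body. Of 4 Schwann cell markers, with sums of 8.8 to 11.7 TPM in Ctrl, against 15.8 to 25.8 TPM in Kmt5b sKO, Sox10 was called higher in the gene body. Fibro-adipogenic sums were 46.7, 72.4 and 58.2 TPM in Ctrl, against 55.5, 49.7 and 51.7 TPM in Kmt5b sKO. Those of smooth muscle or pericytes were 447.8, 429.1 and 253.3 TPM, against 349.5, 285.7 and 362.7 TPM, with Acta2 alone at means of 342 and 285 TPM. Endothelial sums were 3.5, 8.6 and 4.2 TPM in Ctrl, against 5.5, 12.6 and 14.7 TPM in Kmt5b sKO, with Cldn5 at 0 in Ctrl replicates 1 and 3. Of the 4 endothelial markers in the table, 3 had the higher mean in Kmt5b sKO. The immune sum was nearly all Cd68, a gene of lysosomes that other cells also use. Of its other 2 markers in the table, the myeloid marker Itgam was at 0.31 to 0.65 TPM, and the T cell marker Cd3e was at 4.31, 4.53 and 21.2 TPM in Ctrl gene bodies, highest in replicate 3, and at 11.9, 9.48 and 14.2 TPM in Kmt5b sKO. Both were at 0 in every TSS region. The part of these markers in the results below was not tested. In such bulk libraries, fewer cells of a type and less RNA per cell cannot be told apart.

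For none of the 10 genes did the difference between Kmt5b sKO and Ctrl pass the test, in either region or in the ratio of the regions. The spread between libraries was large, and much of it lay in a single control: Ctrl replicate 3 was the highest of the 6 libraries for 8 of the 10 genes at the TSS and for 8 of the 10 in the gene body. Over all 12451 tested genes it was highest for 13.5% and 14.8%, respectively. Values in every library are given below in the order replicate 1, 2 and 3, first for the transcription factors, then for the genes of feedback, redox balance and nutrient sensing and last for the enzymes of amino acid synthesis.

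Atf4 (ENSMUSG00000042406, chr15:80255184-80257540, plus strand, GRCm38) encodes the factor at the centre of the response. Its gene body held 2494, 1310 and 2588 TPM in Ctrl, against 1866, 1744 and 1765 TPM in Kmt5b sKO. This placed Atf4 as gene 12 of 12451 by its Ctrl mean, with 99.9% of tested genes below it. The Ctrl values enclosed all of the Kmt5b sKO values, and Ctrl replicate 2 was the lowest library. In the TSS region the values were 721, 600 and 782 RPM in Ctrl, against 766, 768 and 725 RPM in Kmt5b sKO, so the groups overlapped there too, and the highest and lowest library differed only 1.30-fold. The log2 difference (Kmt5b sKO minus Ctrl, on the log2(value + 0.5) scale in both regions) was 0.11 ± 0.24 (SE, n = 3 per group) in the TSS region, with a 95% confidence interval of -0.39 to 0.61 and an adjusted p of 0.928 by limma. In the gene body it was -0.19 ± 0.33, with an interval of -0.95 to 0.58 and an adjusted p of 0.847 by limma. The first 400 nt of Atf4 are wholly exonic and noncoding, and 67.7% of its gene body is exonic.

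Atf5 (ENSMUSG00000038539, chr7:44812256-44816658, minus strand) encodes a bZIP factor that, like ATF4, is translated when eIF2α is phosphorylated. Its TSS region held 25.4, 40.8 and 67.2 RPM in Ctrl, against 42.9, 31.7 and 28.5 RPM in Kmt5b sKO. The gene body held 29.7, 26.8 and 41.6 TPM in Ctrl, against 54.8, 28.6 and 43.0 TPM in Kmt5b sKO. The groups overlapped in both regions, and the estimates ran in opposite directions, -0.28 ± 0.31 at the TSS and 0.34 ± 0.27 in the gene body (adjusted p = 0.829 and 0.622, limma). Atf5 was, with Ddit3, 1 of the 2 genes whose highest gene body value was not in Ctrl replicate 3. The opposite strand of the locus carries parts of Il4i1 and Nup62, whose reads are kept apart because only the sense strand was counted.

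Ddit3 (ENSMUSG00000025408, chr10:127290774-127296288, plus strand) encodes CHOP, a C/EBP family factor that is induced by ATF4 and promotes death of cells under lasting stress. At the TSS it held 35.8, 51.1 and 70.8 RPM in Ctrl, against 77.0, 58.1 and 39.1 RPM in Kmt5b sKO, 2 ranges that were nearly the same. Over the gene body the values were 39.2, 55.1 and 70.9 TPM in Ctrl, against 83.6, 63.9 and 64.2 TPM in Kmt5b sKO. The gene body of all 3 Kmt5b sKO libraries was above Ctrl replicates 1 and 2, but only 1 was above Ctrl replicate 3. The gene body difference was 0.38 ± 0.23 (interval -0.15 to 0.92, adjusted p = 0.491, limma), and that of the TSS region was 0.14 ± 0.28 (adjusted p = 0.920).

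Trib3 (ENSMUSG00000032715, chr2:152337422-152344032, minus strand) encodes a pseudokinase that is switched on by ATF4 and CHOP and dampens their activity. The TSS region had 19.9, 28.7 and 201 RPM in Ctrl, against 55.1, 56.8 and 20.7 RPM in Kmt5b sKO. Gene body values were 10.8, 14.99 and 82.9 TPM in Ctrl, against 29.8, 26.1 and 13.5 TPM in Kmt5b sKO. Ctrl replicate 3 thus stood 3.54-fold above the next highest library in the TSS region and 2.78-fold above it in the gene body. The highest and lowest Ctrl library differed 10.1-fold and 7.69-fold. This was a wider span than in 99.1% and 99.5% of tested genes with no 0 (11746 at the TSS, 12345 in the gene body). Within Kmt5b sKO the spans were 2.74-fold and 2.21-fold. With that spread, the group differences of -0.28 ± 0.56 and -0.12 ± 0.71 had intervals of -1.45 to 0.90 and -1.79 to 1.55 (adjusted p = 0.923 and 0.965, limma), which reach past a 2-fold change in both directions in the gene body.

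Chac1 (ENSMUSG00000027313, chr2:119351229-119354381, plus strand) encodes an enzyme that degrades glutathione and is induced by ATF4. Its TSS region held 154, 182 and 635 RPM in Ctrl, against 275, 236 and 212 RPM in Kmt5b sKO. The gene body held 59.4, 79.5 and 216 TPM in Ctrl, against 108, 102 and 72.0 TPM in Kmt5b sKO. As in Trib3, Ctrl replicate 3 was far above all other libraries, 2.31-fold above the next in the TSS region, while the other 2 Ctrl libraries were the lowest in the TSS region. The differences were -0.12 ± 0.36 at the TSS and -0.12 ± 0.45 in the gene body (adjusted p = 0.951 and 0.939, limma). Of the 400 nt of the Chac1 TSS region, all are exonic and 226 are coding.

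Ppp1r15a (ENSMUSG00000040435, chr7:45522917-45526268, minus strand) encodes GADD34, which brings protein phosphatase 1 to eIF2α and so ends the response. At the TSS it held 197, 153 and 401 RPM in Ctrl, against 195, 281 and 208 RPM in Kmt5b sKO. Over the gene body the values were 90.4, 74.7 and 109 TPM in Ctrl, against 71.0, 97.3 and 108 TPM in Kmt5b sKO. Ctrl replicate 3 stood out in the TSS region only: in the gene body it was 1.01-fold the next library. The gene body difference was 0.01 ± 0.21, with an interval of -0.48 to 0.49, the value closest to 0 among the 10 genes (adjusted p = 0.995, limma). The TSS region gave -0.03 ± 0.29 (adjusted p = 0.985).

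Sesn2 (ENSMUSG00000028893, chr4:132492032-132510501, minus strand) encodes Sestrin 2, a leucine sensor that restrains mTORC1 and is induced by ATF4 and by P53. The TSS region had 135, 138 and 232 RPM in Ctrl, against 221, 232 and 141 RPM in Kmt5b sKO. Gene body values were 17.3, 20.9 and 40.3 TPM in Ctrl, against 36.3, 30.2 and 30.1 TPM in Kmt5b sKO. In both regions all 3 Kmt5b sKO libraries lay above Ctrl replicates 1 and 2, while Ctrl replicate 3 was level with the highest of them at the TSS and above all of them in the gene body. The differences were 0.25 ± 0.25 in the TSS region (interval -0.28 to 0.77, adjusted p = 0.812, limma) and 0.38 ± 0.30 in the gene body (interval -0.31 to 1.07, adjusted p = 0.613, limma). A noncoding gene, Gm12981, overlaps Sesn2 on the same strand, and reads over the shared part cannot be assigned to 1 of the 2.

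Asns (ENSMUSG00000029752, chr6:7675169-7693254, minus strand) encodes asparagine synthetase, a classic target of ATF4 in cells short of amino acids. Its TSS region held 59.8, 74.7 and 199 RPM in Ctrl, against 108, 121 and 79.6 RPM in Kmt5b sKO. The gene body held 18.5, 25.3 and 45.2 TPM in Ctrl, against 36.5, 26.2 and 23.8 TPM in Kmt5b sKO. Ctrl replicate 3 was again the highest library, 1.65-fold and 1.24-fold above the next. The differences were 0.07 ± 0.33 and 0.03 ± 0.32 in the TSS region and gene body (adjusted p = 0.971 and 0.981, limma).

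Psat1 (ENSMUSG00000024640, chr19:15904678-15925059, minus strand) and Phgdh (ENSMUSG00000053398, chr3:98313170-98339990, minus strand) encode enzymes of the serine pathway, Phgdh for its first step and Psat1 for the transamination that follows. The TSS region of Psat1 held 50.6, 48.3 and 89.2 RPM in Ctrl, against 61.3, 52.8 and 75.4 RPM in Kmt5b sKO. Its gene body held 41.1, 40.5 and 73.7 TPM in Ctrl, against 49.7, 47.1 and 61.3 TPM in Kmt5b sKO, so the Kmt5b sKO libraries lay between the 2 lower Ctrl libraries and Ctrl replicate 3 in both regions. The differences of Psat1 were 0.05 ± 0.26 and 0.08 ± 0.25 (adjusted p = 0.972 and 0.929, limma). For Phgdh the TSS region held 27.1, 29.9 and 58.3 RPM in Ctrl, against 30.5, 22.4 and 26.2 RPM in Kmt5b sKO. Its gene body held 44.6, 39.3 and 70.0 TPM in Ctrl, against 48.5, 47.6 and 42.9 TPM in Kmt5b sKO. Here Ctrl replicate 3 was 1.91-fold and 1.44-fold above the next library. Phgdh had the lowest estimate of the 10 genes in the TSS region, -0.46 ± 0.29 (interval -1.07 to 0.16, adjusted p = 0.643, limma), and -0.10 ± 0.22 in the gene body (adjusted p = 0.881). Exons of Phgdh have copies of at least 95% identity elsewhere in the genome over 96.6% of their length, at 7 loci, whereas the other 9 genes have none. Because 1 random position was kept for reads that map to several, part of the Phgdh signal is uncertain. Only 6.0% of its gene body is exonic, but most of its TSS region is (296 nt). The TSS estimate and the pausing index of Phgdh are therefore more exposed to random placement than its gene body estimate.

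**Figure D1:**
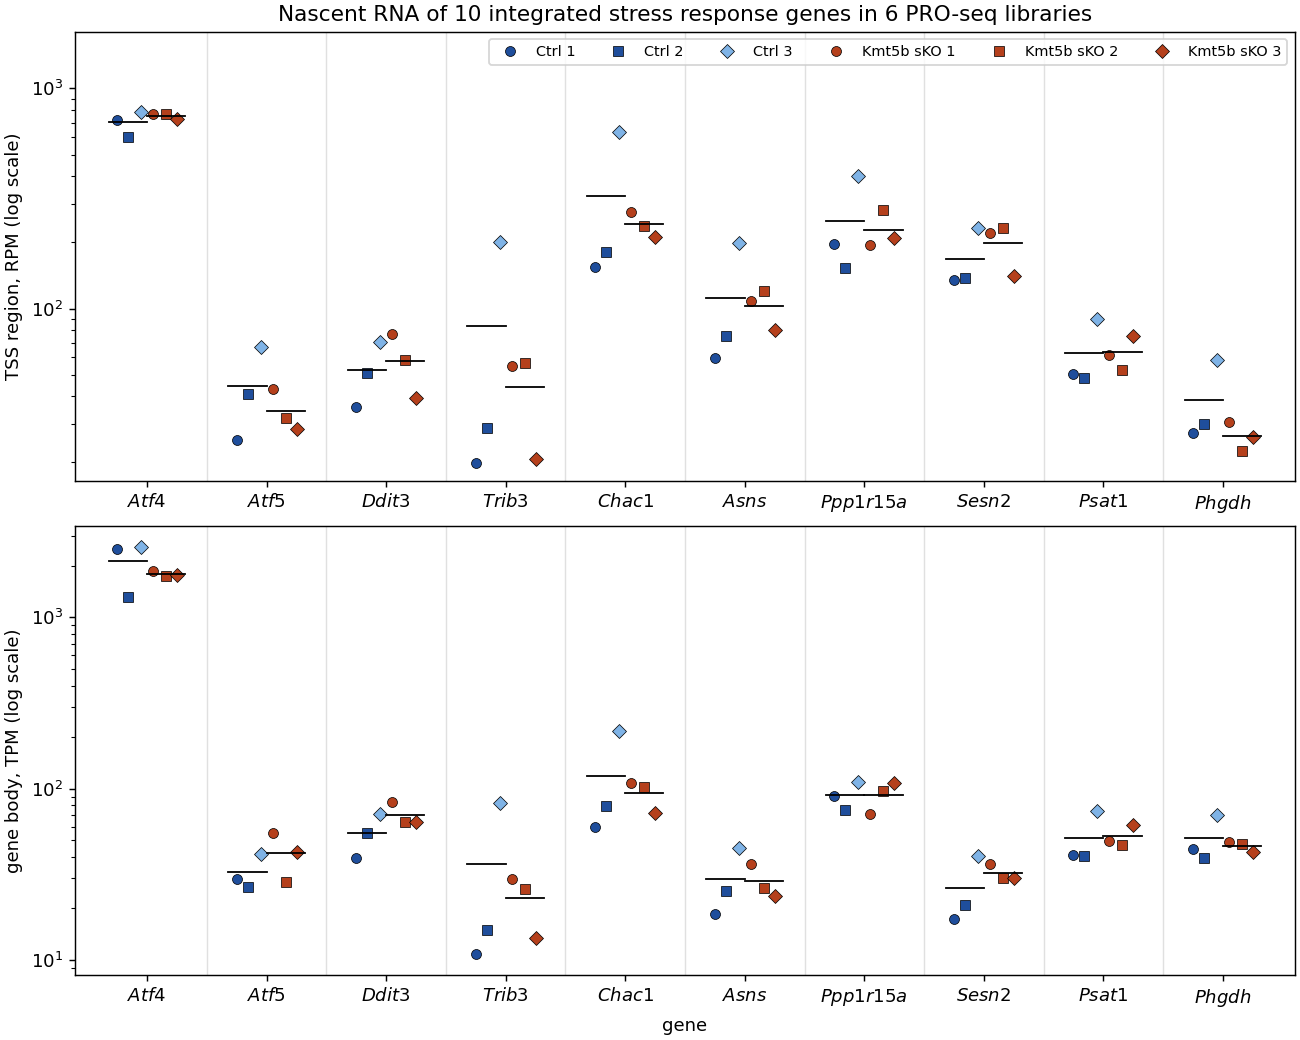
Values of the 10 genes in the 6 libraries, the TSS region in RPM above and the gene body in TPM below, both on log axes; points are libraries, Ctrl in blue and Kmt5b sKO in red, and black lines are the arithmetic mean of each group. Ctrl replicate 3, the light blue diamond, is the highest point for 8 of the 10 genes in each panel, and the groups overlap for all 10.

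Ordered by the mean gene body level in Ctrl, Atf4 (2131 ± 712 TPM, SD, n = 3) came first, in every Ctrl library above all other 9 genes. Chac1 (118 ± 85.4), Ppp1r15a (91.5 ± 17.3), Ddit3 (55.1 ± 15.9), Psat1 (51.8 ± 19.01) and Phgdh (51.3 ± 16.4) followed. Trib3 (36.2 ± 40.5), Atf5 (32.7 ± 7.86), Asns (29.7 ± 13.9) and Sesn2 (26.2 ± 12.4) were lowest. Among neighbours in this order, only Atf4 against Chac1 and Ppp1r15a against Ddit3 were separated without overlap of their Ctrl libraries. In Kmt5b sKO the order began in the same way, with Atf4 at 1792 ± 65.1 TPM and Chac1 at 94.1 ± 19.4 TPM, and ended with Trib3 at 23.1 ± 8.55 TPM.

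Counted over the 10 genes, 0 passed an adjusted p of 0.1 in the TSS region, where 1.66% of the tested genes passed, and 0 passed in the gene body, where 2.99% passed (limma, Benjamini-Hochberg over all genes). An unadjusted p under 0.05 was reached by 0 of the 10 genes in either region with limma, beside 11% of all tested genes at the TSS and 15.9% in the gene body. On the recovered reads edgeR called 0 in each region, with Phgdh at the TSS at an unadjusted p of 0.0468, and DESeq2 called 0 of those it tested, having given no p for Trib3 at the TSS. Both tools put Trib3 lower than limma did, at -1.08 and -1.07 at the TSS. The groups did not overlap for 0 of the 10 genes in either region, against 15.6% of tested genes at the TSS and 21.4% in the gene body. Estimates were above 0 for 5 of the 10 genes at the TSS and 6 in the gene body, with medians of 0.01 and 0.02, beside medians of 0.08 and 0.02 over all tested genes. The 95% confidence interval stayed within a 2-fold change in both directions for 8 of the 10 genes at the TSS and 7 in the gene body. For the remaining genes the interval does not exclude a larger change.

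The estimates moved upward when Ctrl replicate 3 was left out, which follows from its being the highest library for 8 of the 10 genes in each region. They were then above 0 for 9 of the 10 genes in the TSS region, Phgdh being the exception (-0.12), and for 9 of the 10 in the gene body, where Atf4 was the exception (-0.01). Over all tested genes, 54.3% and 48.5% of the estimates were above 0 without this library. The medians of the 10 genes became 0.38 at the TSS and 0.41 in the gene body, whereas those of all tested genes became 0.04 and -0.01. Sesn2 was then called higher in Kmt5b sKO in the gene body, by 0.74 ± 0.15 (interval 0.38 to 1.10, adjusted p = 0.0615, limma, 2 Ctrl against 3 Kmt5b sKO libraries), as 1 of 836 genes or 6.71% called in that region, and 0 of the 10 were called in the TSS region, where 2.17% of genes were. Trib3 turned from -0.12 to 0.76 in the gene body and from -0.28 to 0.74 in the TSS region, and Chac1 from -0.12 to 0.43 and from -0.12 to 0.52, all short of the threshold (adjusted p = 0.279, 0.446, 0.336 and 0.324, limma). Ddit3 was at 0.59 in the gene body (adjusted p = 0.170). The choice of this library was made after its values were seen, since leaving out each library in turn was planned but reading 1 of them apart was not. The shift and the Sesn2 call without it are therefore a description, not a test.

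**Figure D2:**
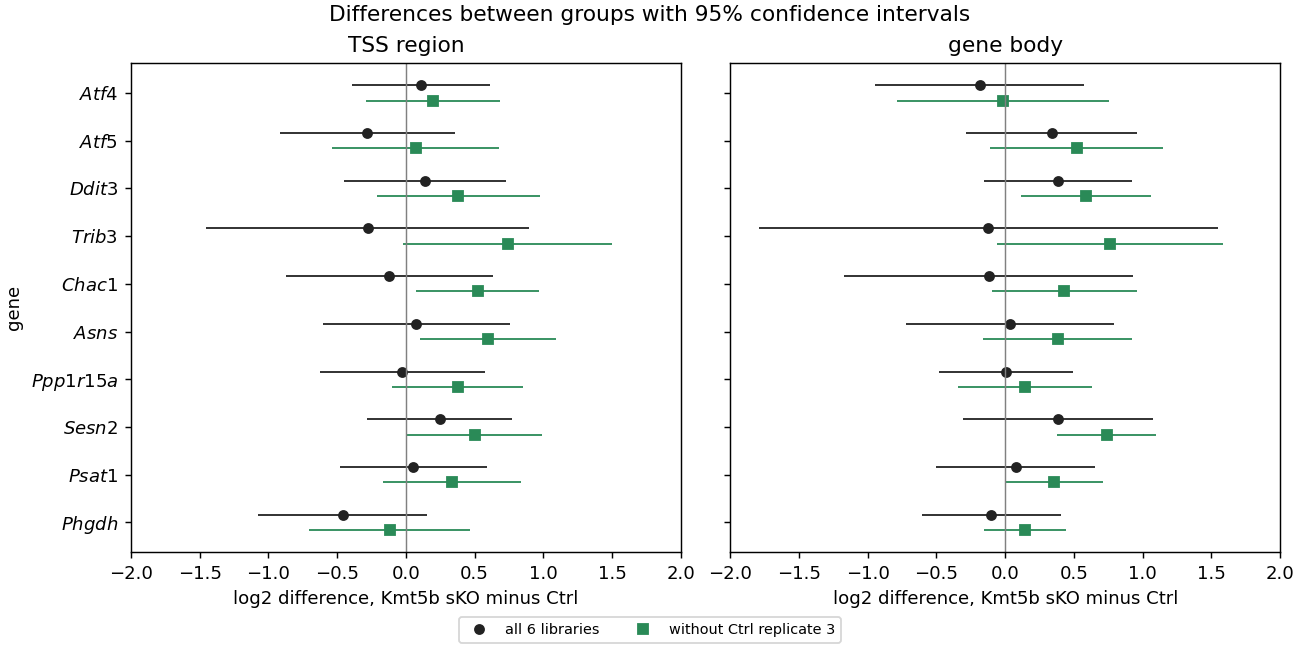
Log2 difference between Kmt5b sKO and Ctrl for each of the 10 genes, the TSS region on the left and the gene body on the right; symbols are estimates of limma and lines their 95% confidence intervals, in black with all 6 libraries and in green without Ctrl replicate 3. With all libraries every interval crosses 0; without Ctrl replicate 3 the estimates shift to the right, and Sesn2 in the gene body (0.74) is the 1 gene past the threshold.

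The pausing index, the value of the TSS region divided by that of the gene body, separates polymerase held near the start from polymerase that elongates. Because the regions were normalised separately in each library, it compares libraries only relative to the other genes and is no ratio of polymerase densities. A shift shared by all genes is removed. Reads in TSS regions and gene bodies were 1066287 and 13582308 in Ctrl replicate 2, against 3246052 and 14241300 in Ctrl replicate 3, a difference that the index does not show. Sesn2 had the highest pausing index of the 10 genes, 7.81, 6.61 and 5.75 in Ctrl, against 6.08, 7.68 and 4.69 in Kmt5b sKO, above that of 96.1% of tested genes by the Ctrl mean. Atf4 had the lowest, 0.289, 0.458 and 0.302 in Ctrl, against 0.411, 0.440 and 0.411 in Kmt5b sKO, with 7.0% of tested genes below it. The Atf4 groups overlapped through Ctrl replicate 2.

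In Asns the index was 3.24, 2.96 and 4.41 in Ctrl, against 2.96, 4.62 and 3.35 in Kmt5b sKO. In Ppp1r15a it was 2.181, 2.04 and 3.66 in Ctrl, against 2.75, 2.89 and 1.93 in Kmt5b sKO, and in Chac1 it was 2.59, 2.28 and 2.94 in Ctrl, against 2.54, 2.32 and 2.95 in Kmt5b sKO. The means of the Chac1 groups were nearly equal, 2.603 ± 0.326 and 2.604 ± 0.322 (SD, n = 3). Trib3 had 1.84, 1.92 and 2.42 in Ctrl, against 1.85, 2.179 and 1.53 in Kmt5b sKO, so a gene whose TSS region spanned 10.1-fold over the libraries spanned 1.58-fold in the ratio. Psat1 was the steadiest, with 1.23, 1.19 and 1.21 in Ctrl, against 1.23, 1.12 and 1.23 in Kmt5b sKO. Values for Atf5 were 0.855, 1.52 and 1.62 in Ctrl, against 0.783, 1.11 and 0.664 in Kmt5b sKO. Those for Ddit3 were 0.915, 0.927 and 0.9996 in Ctrl, against 0.922, 0.909 and 0.609 in Kmt5b sKO, and those for Phgdh were 0.608, 0.760 and 0.834 in Ctrl, against 0.628, 0.471 and 0.611 in Kmt5b sKO. In these 3 genes, as in Trib3, Ppp1r15a, Sesn2 and Psat1, the lowest index was in a Kmt5b sKO library, with overlap between the groups in each.

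The index of 0 of the 10 genes passed the threshold, as did that of 0 of the 11698 genes tested, 0% (limma). An unadjusted p under 0.05 was reached by 453 of all genes, 3.87%, and by 0 of the 10. The groups overlapped for all 10 genes, while 9.02% of tested genes had no overlap. On the log2 scale Atf5 had the estimate farthest from 0, -0.62 ± 0.31 (interval -1.31 to 0.07, adjusted p = 1, limma), followed by Phgdh with -0.36 ± 0.23 and Atf4 with 0.30 ± 0.28. The highest library exceeded the lowest by a median of 2.61-fold over the 10 genes at the TSS and 2.09-fold in the gene body, against 2.03-fold and 1.66-fold over tested genes with no 0. In the pausing index the medians were 1.61-fold for the 10 genes and 1.99-fold for tested genes. The 10 genes therefore varied more between libraries than the median gene in each region but less in the ratio. Within Kmt5b sKO the median spans were 1.47-fold and 1.41-fold in the TSS region and gene body, close to the 1.51-fold and 1.29-fold of tested genes with no 0. Within Ctrl they were 2.39-fold and 1.90-fold, against 1.56-fold and 1.40-fold for the same tested genes.

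**Figure D3:**
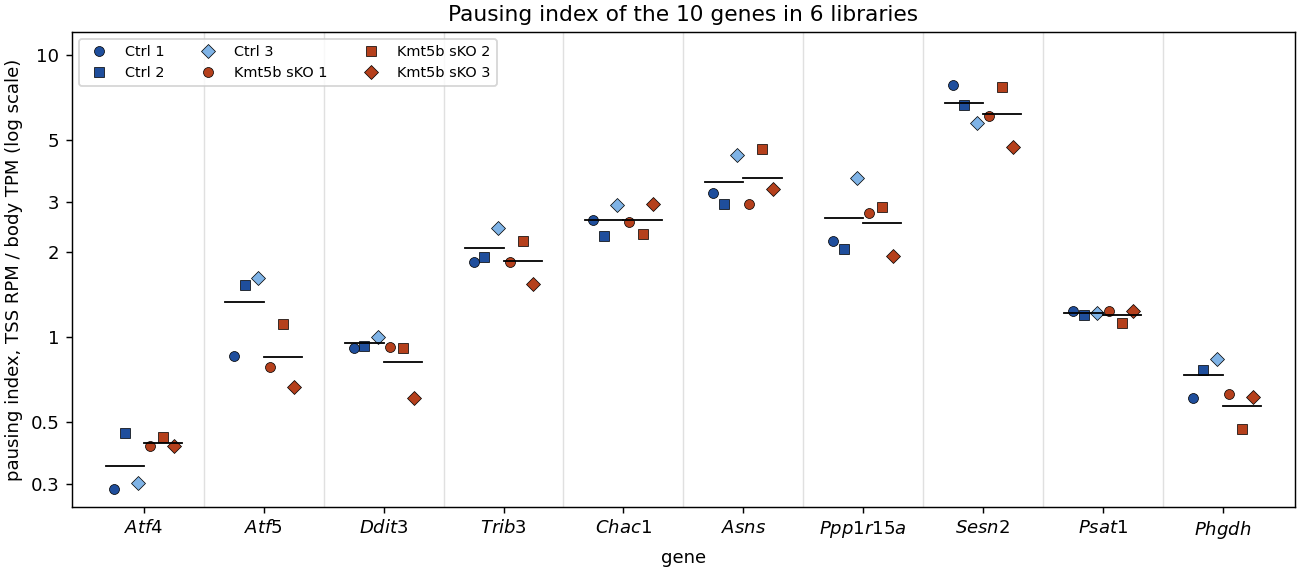
Pausing index of the 10 genes in the 6 libraries on a log axis, as TSS region RPM divided by gene body TPM; points are libraries and black lines the arithmetic mean of each group. The index runs from 0.289 in Atf4 to 7.81 in Sesn2, and the groups overlap for every gene.

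Upstream of ATF4 stand the 4 kinases of eIF2α, of which 0 passed the threshold in either region (limma), with an unadjusted p under 0.05 for 0 of them at the TSS and for 1 in the gene body, against the same 11% and 15.9%. Eif2ak3 (PERK, the kinase of the endoplasmic reticulum) held 6.86, 8.37 and 9.49 TPM in the gene bodies of Ctrl and 8.96, 7.97 and 4.81 TPM in Kmt5b sKO. Eif2ak4 (GCN2, which senses uncharged tRNA) held 10.8, 11.6 and 11.2 TPM and 9.03, 11.1 and 9.06 TPM, and Eif2ak1 (HRI, the heme-regulated kinase) 5.45, 6.75 and 5.47 TPM and 5.02, 5.46 and 5.40 TPM. In these 3 kinases the groups overlapped, and Ctrl replicate 3 was the highest library for Eif2ak3 only. Eif2ak2 (PKR, the sensor of double-stranded RNA) held 7.60, 8.40 and 6.50 TPM in Ctrl, against 4.38, 5.67 and 6.23 TPM in Kmt5b sKO, without overlap. Its difference was -0.44 ± 0.19 (adjusted p = 0.311, limma). In the TSS region the differences were 0.21 for Eif2ak1, -0.20 for Eif2ak2, -0.07 for Eif2ak3 and -0.11 for Eif2ak4, with adjusted p of 0.875 to 0.967.

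Beyond the 10 genes, 7 lists of the pathway, the kinases among them, held 98 symbols, of which 89 were tested. Of the 89 genes limma called 0 at the TSS, where an unadjusted p under 0.05 was reached by 6 upward and 5 downward, beside 7.34% and 3.65% of all tested genes. In the gene body 4 of the 89 reached that p upward and 3 downward, beside 15.9% of all tested genes in both directions together. There limma called 1, beside 2.99% of all tested genes. The 1 gene was Slc43a1, a transporter of large neutral amino acids, which fell from 11.4, 8.64 and 10.4 TPM in Ctrl to 5.32, 5.65 and 3.15 TPM in Kmt5b sKO. The groups did not overlap, and the difference was -1.06 ± 0.24 (adjusted p = 0.0975, limma). Without Ctrl replicate 3 the same gene was at -1.04 with an adjusted p of 0.106, on the other side of the threshold. In the TSS region it was at -0.93 ± 0.34 (adjusted p = 0.252). The median difference over the 89 genes was 0.00 at the TSS and -0.04 in the gene body, beside the 0.08 and 0.02 of all tested genes. Without Ctrl replicate 3, 74.2% and 67.4% of the 89 estimates were above 0. Gadd45a, a stress-induced growth arrest gene, was then called higher in both regions (0.80 and 0.72) and Grb10, an adaptor that restrains insulin signalling, lower in the gene body (-0.73). That made 1 of the 89 genes called at the TSS, beside 2.17% of all tested genes. In the gene body it made 1 higher and 1 lower, beside 6.71% of all tested genes.

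By list, the gene body differences of the 12 tested genes of amino acid synthesis ran from -0.58 for Shmt2, the mitochondrial serine hydroxymethyltransferase, to 0.24 for Gpt2, a mitochondrial alanine transaminase. Among the 14 aminoacyl tRNA synthetases and related genes they ran from -0.32 for Vars to 0.14 for Tars. The 9 bZIP partners ran from -0.44 for Cebpb, a C/EBP factor that pairs with ATF4, to 0.11 for Jdp2. The 14 genes of eIF2, eIF2B and the phosphatase ran from -0.17 for Eif2b3 to 0.29 for Eif2b5, both subunits of the eIF2B exchange factor. The 24 other ATF4 and CHOP targets ran from -0.72 for Txnip, which binds thioredoxin, to 0.87 for Fgf21, a secreted metabolic hormone. The Fgf21 values were 10.2, 21.2 and 12.2 TPM in Ctrl, against 21.7, 8.88 and 86.2 TPM in Kmt5b sKO, so 1 Kmt5b sKO library stood far above the rest. The 20 genes of the other branches of the unfolded protein response, run by ATF6 and IRE1, gave values from -0.73 for the chaperone Calr to 0.18 for the ubiquitin ligase Syvn1, with 0 called in either region and 2 genes lower at the TSS at an unadjusted p under 0.05. None of these named genes passed the threshold, with adjusted p of 0.368 to 0.913 (limma).

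In the wider lists, Ctrl replicate 3 was the highest library in the gene body for 9 of 12 genes of amino acid synthesis, for 8 of 12 transporters and for 11 of 14 tRNA synthetases, against 14.8% of all tested genes. For the kinases this held for 1 of 4, for the bZIP partners for 6 of 9, for the eIF2, eIF2B and phosphatase list for 4 of 14, for the other ATF4 and CHOP targets for 7 of 24 and for the other branches of the unfolded protein response for 9 of 20. Among the listed genes outside the 10, the largest excess in the gene body was that of Cth, the enzyme that makes cysteine from cystathionine, and at the TSS that of Slc7a11, the cystine transporter, both chosen after their values were seen. The gene body of Cth held 1.15, 1.10 and 12.7 TPM in Ctrl, against 3.19, 2.86 and 1.55 TPM in Kmt5b sKO, so Ctrl replicate 3 was 3.97-fold above the next library. The TSS region of Slc7a11 held 15.0, 22.4 and 212 RPM in Ctrl, against 51.5, 40.3 and 24.8 RPM in Kmt5b sKO, with Ctrl replicate 3 at 4.11-fold the next. In log2 units the median of the 10 genes in Ctrl replicate 3 exceeded the mean of the other 2 Ctrl libraries by 1.04 at the TSS and 0.79 in the gene body. For amino acid synthesis the excess was 1.41 and 1.01, while over all tested genes it was -0.12 and -0.13. The same measure was -0.24 and -0.47 for the 14 markers of differentiating myocytes. For the 10 markers of MuSCs or myoblasts it was 0.09 and -0.48, so in the gene body both lists were low in this library. The part of either in the height of the stress genes was not tested.

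**Figure D4:**
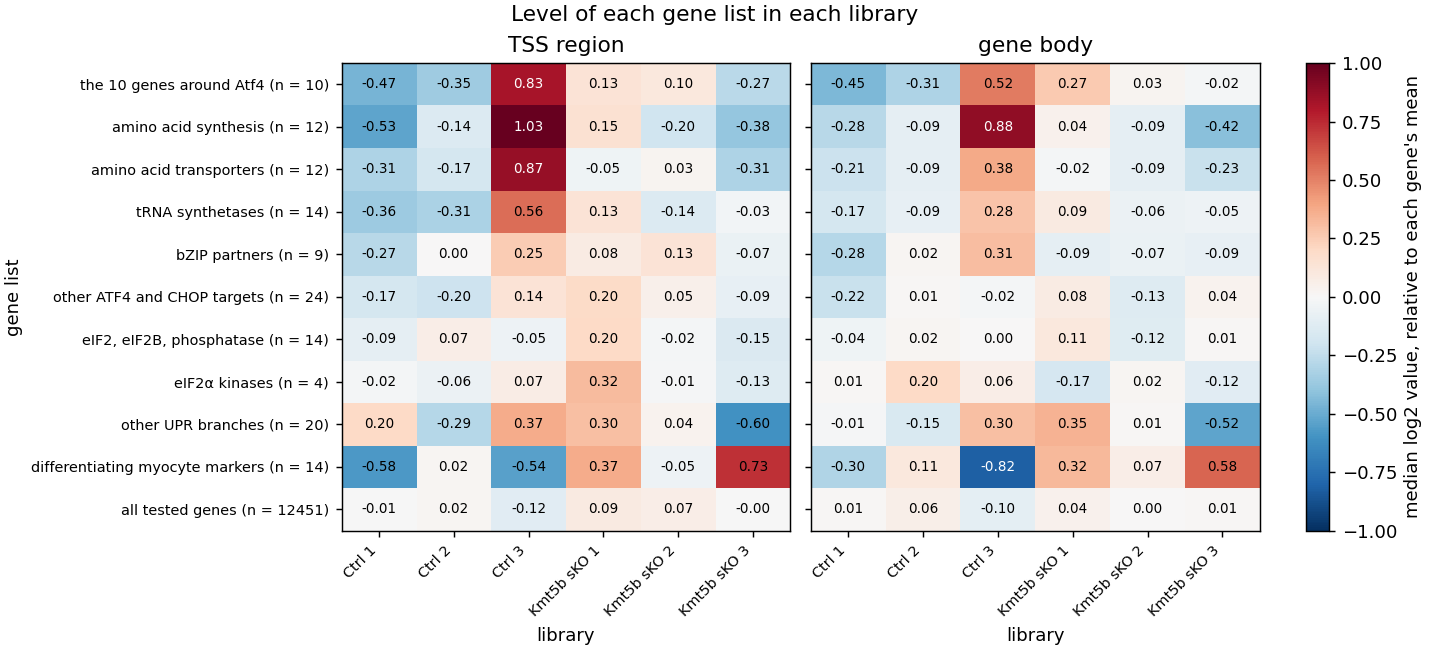
Median over each gene list of the log2 value relative to each gene's mean over the 6 libraries, the TSS region on the left and the gene body on the right; rows are lists with their number of tested genes, columns are libraries, and red is higher. In Ctrl replicate 3 the 10 genes are at 0.83 and 0.52 and amino acid synthesis at 1.03 and 0.88, while the markers of differentiating myocytes are at -0.54 and -0.82.

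The 3 genes whose gene body values ran most like those of Atf4 over the 6 libraries were Brix1 (Pearson r = 0.994), A830005F24Rik (0.981) and Pan2 (0.974), given as a description over 6 points that share their libraries and depth. Brix1, a factor of ribosome assembly, spanned only 41.5 to 44.8 TPM, and Pan2, a subunit of an RNA deadenylase, 22.9 to 31.7 TPM. Among the other 9 genes the correlation with Atf4 was highest for Phgdh (0.708) and lowest for Ddit3 (-0.153), with Trib3 at 0.401 and Chac1 at 0.357. Within Kmt5b sKO the Atf4 gene body spanned only 1.07-fold, so these correlations over 6 libraries rest largely on Ctrl. They cannot tell a loose from a close relation. Ctrl replicate 1 was nearly as high as Ctrl replicate 3 for Atf4 (2494 against 2588 TPM). The same library was the lowest in the gene body for Trib3, Chac1, Asns, Sesn2 and Ddit3.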

How the data were processed

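PRO-seq libraries of proliferating MuSCs were grouped by the genotype in the labels, 3 Ctrl and 3 Kmt5b sKO. The methods call them biological replicates without giving animals or cultures, so p-values measure the spread between these libraries. Per the labels and the methods of the study, the authors checked reads with FastQC 0.11.8, trimmed them with Trimmomatic 0.39, aligned them to mm10 (GRCm38) with STAR 2.6.1d keeping 1 random position per read that maps to several, and removed duplicates with Picard 2.18.16. The sense-strand signal was averaged over 1 isoform per protein-coding gene of at least 1000 nt. The deposited TSS values are headed TPM but, with 400 nt in every gene, equal RPM, and the deposited gene body values are TPM. Removal of duplicates and random placement can lower strong signals and blur repeated sequence.

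Tests ran on log2(value + 0.5) of the deposited values with limma 3.58.1 (lmFit, eBayes with a trend, R 4.3.3), for autosomal genes averaging 0.5 or more in both regions (12451 genes; 472 genes on X and 6 on Y left out), and on the log2 ratio of the regions for 11698 genes above 0 in all libraries. The p-values are 2-sided and were adjusted by Benjamini-Hochberg over all genes, with a threshold of 0.1, and the fit was tested on simulated data. Whole reads were recovered from the steps between values, within 0.1 of a whole number for at least 99.99% of TSS values and 99.3% of gene bodies under 2000 nt, and served for edgeR 4.0.16 and DESeq2 1.42.0 as alternatives. Other alternatives were the pseudocount, the filters, the centring, a block by replicate number and leaving out each library. Same-numbered libraries did not deviate together, which gave no sign that the numbers pair the samples but cannot exclude it. Promoters are RefSeq's and exons GENCODE vM21's, both of GRCm38, and copies of exons were sought with blastn (identity of at least 95% over at least 50 nt).

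The 10 genes, the lists and the markers were chosen with earlier results of these data known. Named were all 10 genes, the 4 eIF2α kinases, any listed gene past the threshold, otherwise the highest and lowest gene body difference of a list, and the 3 genes most like Atf4.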

Additional observations from a re-analysis of the deposited data

How the results depend on the processing

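Of the 10 genes, 0 were called in any region or in the pausing index with pseudocounts of 0.1 and 1, without the filter, with X and Y kept, without the trend, at an adjusted p of 0.05, with each library centred on its median, with edgeR or DESeq2 (run on the regions only, with no DESeq2 p for Trib3 at the TSS), or with the replicate block. With the replicate block limma called 0 of all genes at the TSS and 0 in the gene body, where 1141 and 1441 had an unadjusted p under 0.05. Leaving out 1 library gave 0 to 1 called genes in the gene body, the 1 being Sesn2 without Ctrl replicate 3. Over all tested genes the counts depended far more on the setting: leaving out a library gave 1 to 408 calls at the TSS, 0 to 836 in the gene body and 0 to 1 in the pausing index, beside 207, 372 and 0. An adjusted p under 0.05 left 64 and 1, edgeR and DESeq2 gave 748 and 1295 in the gene body, and at the TSS limma called 0 genes without the filter or without the trend (1448 and 1292 at an unadjusted p under 0.05). The cause was not tested.

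Directions of estimates close to 0 changed easily: 38 of 180 turned when 1 library was left out, 8 of them without Ctrl replicate 3, and 13 of 280 under other settings. Under edgeR and DESeq2 the log2 difference became -0.24 and -0.24 for Asns and -0.0884 and -0.0948 for Psat1 at the TSS, and -0.0848 and -0.0958 for Asns, -0.0264 and -0.0314 for Ppp1r15a and -0.0148 and -0.0224 for Psat1 in the gene body. Without a change of sign, Trib3 moved to -1.08 and -1.07 and Chac1 to -0.54 and -0.55 at the TSS, and in the gene body Trib3 to -0.73 and -0.74 and Chac1 to -0.39 and -0.40. Centring gave -0.0092 for Psat1 at the TSS, and -0.0518 for Chac1 and -0.0129 for Asns in the pausing index. Without 1 library, the TSS estimates ran from -0.62 to 0.0711 for Atf5, -0.10 to 0.40 for Ddit3, -0.92 to 0.74 for Trib3, -0.50 to 0.52 for Chac1, -0.27 to 0.60 for Asns, -0.32 to 0.38 for Ppp1r15a and -0.10 to 0.34 for Psat1. Gene body estimates ran from -0.68 to 0.76 for Trib3, -0.50 to 0.43 for Chac1, -0.25 to 0.38 for Asns, -0.13 to 0.18 for Ppp1r15a, -0.0704 to 0.36 for Psat1 and -0.27 to 0.14 for Phgdh. In the pausing index they ran from -0.093 to 0.0916 for Chac1, -0.14 to 0.21 for Asns, -0.19 to 0.23 for Ppp1r15a, -0.32 to 0.0353 for Sesn2 and -0.0453 to 0.0237 for Psat1. The gene body estimates of Atf4, Atf5, Ddit3 and Sesn2 kept their direction under every setting run. With 3 libraries a group, an interval reaching past a 2-fold change remained in at least 1 region for Trib3, Chac1, Sesn2 and Phgdh.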
